A study of Mus musculus with 16 samples.

Results

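Semaphorins, ephrins and their receptors are cell-surface and secreted proteins that steer growing axons and migrating cells. The genes described here were all 53 protein-coding genes of GENCODE vM21 whose symbols begin with Sema, Plxn, Efna, Efnb, Epha or Ephb, together with Nrp1 and Nrp2, out of 21938 protein-coding genes. They comprised 20 semaphorins, 9 plexins, 2 neuropilins, 8 ephrins, 9 EphA receptors and 5 EphB receptors, or 28 ligands and 25 receptors. Membership was set by symbol.

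The data came from mouse model tumours of clear cell sarcoma (CCS), a soft tissue cancer driven by the EWSR1::ATF1 fusion oncoprotein. Mice carried a V5-tagged human EWSR1::ATF1 cDNA in the Rosa26 locus behind a loxP-flanked stop cassette, which was removed by injecting the cell-permeant recombinase TATCre into the hindlimb of 4-week-old mice. All mice were of a mixed 129/SvJ and C57Bl/6 background, and no group without the fusion was part of these data. Chromatin immunoprecipitation and sequencing (ChIP-seq) was labelled for 16 samples of whole tumour, 4 each for V5 (the tag on the fusion), RNAPOL2 (phosphorylated RNA polymerase II), H3K27ac (a histone mark of active promoters and enhancers) and input chromatin. The sex of the animals, their age when the tumours were taken, and which tumours gave which sample were not given in the sources used here.

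The measurements are 3 lists of peaks, 1 for each antibody, with 10665 peaks for V5, 20375 for RNAPOL2 and 27552 for H3K27ac. Each peak has a score in whole numbers given by the authors. Its scale is not stated, so scores and ranks (1 is the highest) were compared only within a list. The lists hold no values for single samples, so there is no replicate error and no test was made, and the main counts are set beside the shares of all protein-coding genes. The study describes its V5 sites by more than 1 total. The total given in its main text is well above the 10665 peaks of the deposited list, and every V5 count here rests on that list. The methods state 1 approximate sequencing depth for all libraries, but the lists do not show what each sample reached, and a gene without a peak is one where none was listed, which does not show that the factor or mark was absent.

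Semaphorins bind plexins, and the secreted class 3 semaphorins mostly do so through neuropilins as co-receptors. Ephrins bind Eph receptors, the largest family of receptor tyrosine kinases, and signal in both directions between touching cells. Both systems guide neural crest cells, the lineage from which melanocytes and Schwann cells arise, and CCS shares features of melanocytes.

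Sequence beneath V5 peaks was read from GRCm38, the assembly that mm10 names, on the plus strand. The ATF1 part of the fusion binds DNA, and the classical ATF/CREB motif is TGACGTCA. Of the 16 V5 peaks at the promoters or in the bodies of the 53 genes, only the peaks over the starts of Epha2 and Sema4c held it. They are shown because they are these 2 sites, with the motif in capitals. The Epha2 stretch is chr4:141301144-141301239, where the motif lies 49 bp upstream of the start site. The Sema4c stretch is chr1:36558254-36558283, in the first exon of the longest transcripts and 18 bp upstream of another start site of the gene.
Epha2 start: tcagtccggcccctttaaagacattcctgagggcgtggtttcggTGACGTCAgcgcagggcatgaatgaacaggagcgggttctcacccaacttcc
Sema4c start: ccccaacccctTGACGTCAggcagagggtg

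Other V5 peaks held repeats of TGA or of its complement TCA, or the AP1 motif TGAGTCA. A string was defined as more than 4 units of TGA or TCA with gaps of at most 5 bp. The next stretches come from 3 of the V5 peaks with such sequence, scored 2004, 844 and 468, with the units or the motif in capitals. Other peaks with such sequence and higher scores, including one nearest to Sema6a with a score of 11744, are not shown. The peak 20.05 kb upstream of Epha2 held 38 units in 3 strings of 11 to 16 units (stretch shown, chr4:141280891-141281120). The intronic peak of Sema5b held 14 units in 2 strings (stretch shown, chr16:35631583-35631656). The intronic peak of Sema4f held the AP1 motif, read as TGACTCA on this strand (chr6:82934779-82934835), and a string of 5 units (chr6:82935069-82935112).
Epha2 upstream: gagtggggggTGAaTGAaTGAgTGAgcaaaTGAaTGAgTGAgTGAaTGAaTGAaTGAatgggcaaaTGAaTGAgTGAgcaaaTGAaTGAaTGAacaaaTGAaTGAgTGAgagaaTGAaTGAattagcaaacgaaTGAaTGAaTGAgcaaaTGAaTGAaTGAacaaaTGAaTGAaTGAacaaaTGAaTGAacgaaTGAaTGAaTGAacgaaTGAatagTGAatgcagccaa
Sema5b intron: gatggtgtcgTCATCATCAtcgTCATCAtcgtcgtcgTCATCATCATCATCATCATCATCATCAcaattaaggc
Sema4f intron, AP1 motif: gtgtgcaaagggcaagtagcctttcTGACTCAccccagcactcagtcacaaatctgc
Sema4f intron, string: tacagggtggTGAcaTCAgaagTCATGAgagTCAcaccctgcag

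Most of the guidance genes carried RNAPOL2 and H3K27ac at their promoters, and few carried the fusion. A promoter peak was a peak overlapping, by at least 1 bp, the window within 3 kb of any transcription start site (TSS) of the gene. V5 promoter peaks were listed at 8 of the 53 genes (15.1%), beside 16.6% of all protein-coding genes. RNAPOL2 promoter peaks were listed at 33 genes (62.3%), beside 53.5%. H3K27ac promoter peaks were listed at 38 genes (71.7%), beside 58.6%. Over the whole list the V5 share was thus close to the background. Without the V5 peaks scored below 103 it was 4 genes (7.55%, beside 12.2%), and with the upper 50% of each list it was 2 (3.77%, beside 7.3%). With peaks shared between genes left out it was 6 (11.3%, beside 9.11%), so the side of the background on which the V5 share lay turned with the setting. For RNAPOL2 and H3K27ac the shares lay above the background, without a test of either difference. In the 22 genes of at least 100 kb the shares lay below those of protein-coding genes of that length. There RNAPOL2 was at 40.9% beside 59.1%, H3K27ac at 59.1% beside 70.2% and V5 at 18.2% beside 23.7%. The genes under 20 kb and of 20 to 100 kb lay above for RNAPOL2 and H3K27ac, and below for V5. In whole tumour, fewer cells of a type and less signal per cell cannot be told apart.

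All 8 genes with a V5 promoter peak also had both other marks there, namely Efna5, Epha2, Sema3b, Sema3c, Sema4c, Sema4f, Sema5a and Sema6a. Of the 3640 protein-coding genes with a V5 promoter peak, 95.7% had both, so this is the general pattern of the lists. The 8 genes were 15.1% of the family, beside 15.9% of all protein-coding genes. Among the 33 genes with RNAPOL2 at the promoter, the share with V5 was 24.2%, beside 29.7% of all protein-coding genes with RNAPOL2. A further 24 genes (45.3%) had RNAPOL2 and H3K27ac without V5, beside 36.3% of all protein-coding genes. H3K27ac alone was listed at 6 genes (11.3%, beside 5.87%), which were Plxna2, Plxna4, Plxnc1, Sema4d, Sema4g and Sema5b. RNAPOL2 alone was listed at Epha7, with a score of 71.

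No promoter peak of any list was found at 14 genes (26.4%), beside 39.9% of all protein-coding genes. These were the ephrin Efna3, the Eph receptors Epha1, Epha3, Epha4, Epha5, Epha6, Epha8, Epha10 and Ephb1, the plexin Plxnb3, and the secreted semaphorins Sema3a, Sema3d, Sema3e and Sema3g. Epha1 had 1 RNAPOL2 peak in its body, with a score of 63, and the other 13 had no peak of any list at the promoter or in the body. The 14 genes were 9 of the 25 receptors (36%) and 5 of the 28 ligands (17.9%). Of these 9 receptors, 7 were EphA genes, and of the 5 ligands, 4 were class 3 semaphorins.

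**Figure D1:**
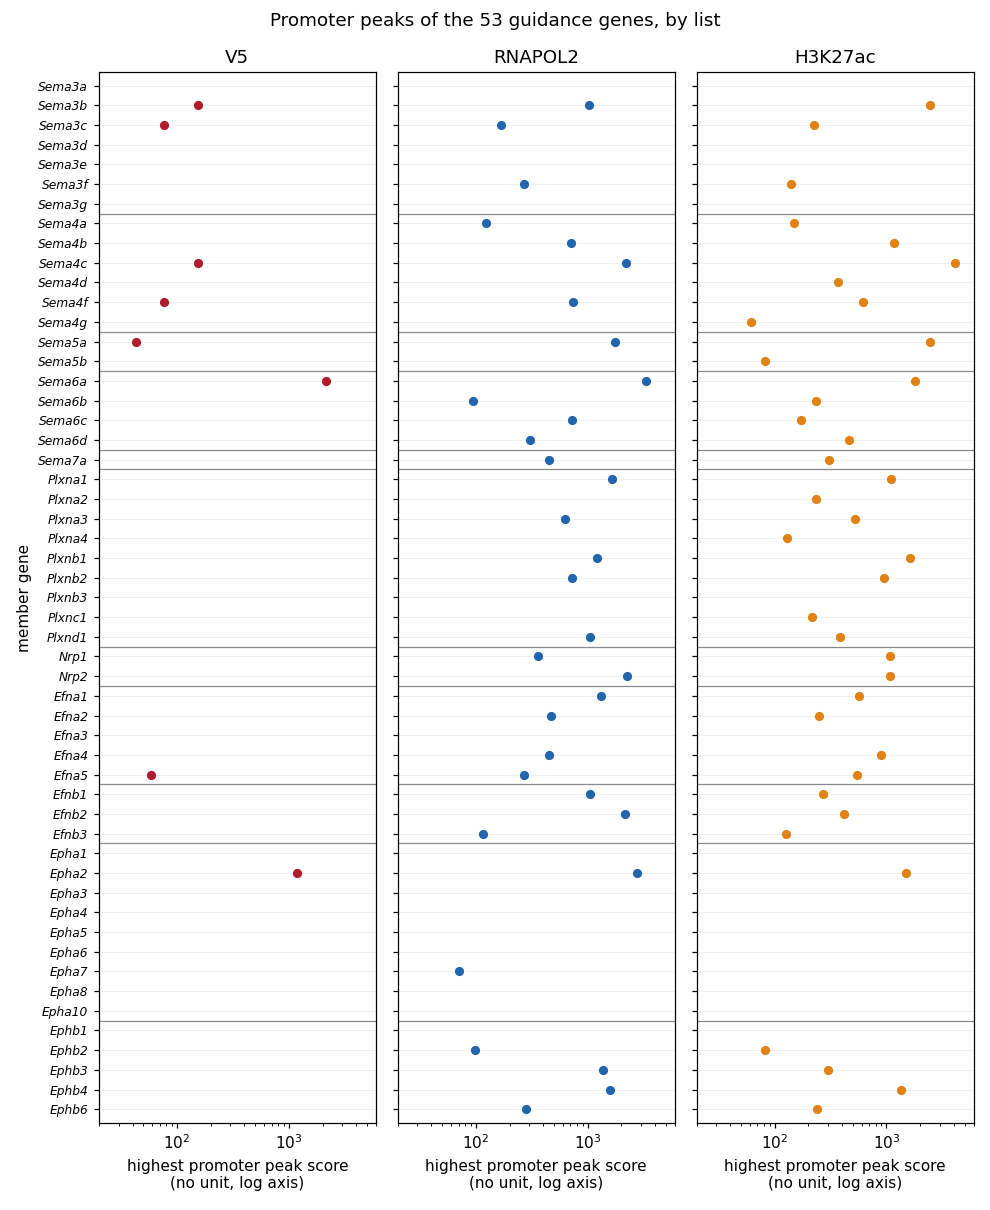
Score of the highest promoter peak of each of the 53 genes (rows, grouped by family with grey lines) in the V5, RNAPOL2 and H3K27ac lists (panels, log axis, no unit); a row without a point has no promoter peak in that list. Points fill 8 rows for V5, 33 for RNAPOL2 and 38 for H3K27ac, and 8 of the 9 EphA rows lack an H3K27ac point.

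Of the 8 genes with V5 at the promoter, 7 were ligands, while the receptor Epha2 held 3 of the 10 V5 promoter peaks. V5 was listed at 7 of 28 ligands (25%) and at 1 of 25 receptors (4%), beside 16.6% of all protein-coding genes. This split rests in part on low-scored peaks. The ligands Efna5 (59), Sema3c (76), Sema4f (76) and Sema5a (43) had V5 promoter scores below 103. With the upper 50% of each list, the 2 genes left were the ligand Sema6a and the receptor Epha2. RNAPOL2 was listed at 20 ligands (71.4%) and 13 receptors (52%), beside 53.5%, and H3K27ac at 23 ligands (82.1%) and 15 receptors (60%), beside 58.6%. The receptors as a whole thus lay near the background for RNAPOL2 and H3K27ac, but their families differed. H3K27ac was listed at 1 of 9 EphA genes, 4 of 5 EphB genes, 8 of 9 plexins and both neuropilins. RNAPOL2 was listed at 2, 4, 5 and 2 of them in the same order. None of these differences, nor those between the small families that follow, was tested. V5 was listed at 6 of 20 semaphorins (30%) and 1 of 8 ephrins (12.5%).

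Among the semaphorins, H3K27ac was listed more often at the classes that are mostly membrane-bound than at the secreted class. All 13 genes of classes 4, 5, 6 and 7 had an H3K27ac promoter peak, whereas 3 of the 7 class 3 genes did (42.9%), beside 58.6% of all protein-coding genes. RNAPOL2 was listed at 3 of 7 class 3 genes (42.9%, beside 53.5%), 4 of 6 class 4 genes, 1 of 2 class 5 genes, 4 of 4 class 6 genes and at Sema7a, the only semaphorin held by a lipid anchor. V5 was listed at 2 of 7 class 3 genes (28.6%) and at 4 of the 13 others, beside 16.6% of all protein-coding genes. The 3 class 3 genes with marks were Sema3b, Sema3c and Sema3f. Their highest H3K27ac promoter scores ran from 140 at Sema3f to 2453 at Sema3b, while those of the class 4 genes ran from 61 at Sema4g to 4081 at Sema4c.

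Ephrins were marked almost throughout. RNAPOL2 and H3K27ac were each listed at 7 of the 8 ephrin promoters (87.5%, beside 53.5% and 58.6%), with Efna3 as the exception in both lists. The 3 transmembrane ephrin-B genes all had both marks, with RNAPOL2 scores from 117 at Efnb3 to 2138 at Efnb2 and H3K27ac scores from 126 to 414. The RNAPOL2 peak at Efnb2 also lies within 3 kb of the TSS of another gene. V5 was listed at 1 of the 8 ephrin promoters (12.5%, beside 16.6%), that of Efna5.

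No plexin and no neuropilin had a V5 promoter peak, in a group of 9 and 2 genes and beside a background of 16.6%. H3K27ac was listed at 8 of 9 plexins (88.9%, beside 58.6%), with scores from 129 at Plxna4 to 1623 at Plxnb1, and RNAPOL2 at 5 of 9 (55.6%, beside 53.5%), with scores from 628 at Plxna3 to 1655 at Plxna1. All 4 plexin-A genes, which serve the class 3 semaphorins together with neuropilins, had H3K27ac, and 2 of them had RNAPOL2. Both neuropilins had both marks. Nrp2 (ENSMUSG00000025969.15, chromosome 1, 62703285 to 62818695) had the third highest RNAPOL2 score of the 53 genes, 2246 at rank 1467, and an H3K27ac score of 1076, and Nrp1 had scores of 357 and 1064.

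Few EphA promoters and most EphB promoters were marked. An H3K27ac promoter peak was listed at 1 of 9 EphA genes (11.1%), Epha2, and at 4 of 5 EphB genes (80%), beside 58.6% of all protein-coding genes. RNAPOL2 was listed at 2 EphA (22.2%) and 4 EphB genes (80%), beside 53.5%. No promoter peak was listed at 7 EphA genes (77.8%) and 1 EphB gene (20%), beside 39.9%. The highest EphB scores were those of Ephb4, a receptor known for its role in veins, with 1586 for RNAPOL2 and 1350 for H3K27ac. The EphA genes were also the longer ones, with a median length of 147.904 kb against 28.561 kb for EphB. Of all protein-coding genes of at least 100 kb, 59.1% had an RNAPOL2 and 70.2% an H3K27ac promoter peak. These shares were 64.5% and 70.7% at 20 to 100 kb, and 45.2% and 48.2% under 20 kb. The part of length in the contrast was not tested.

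**Figure D2:**
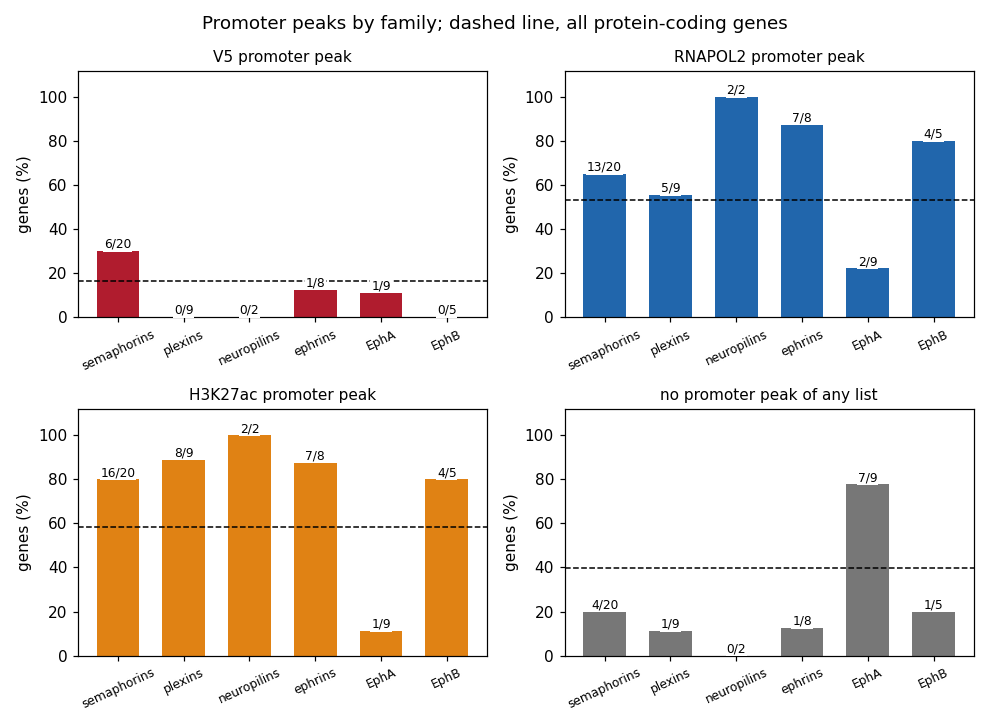
Share of genes (%, y axis) in each of 6 families (x axis) with a V5, RNAPOL2 or H3K27ac promoter peak and with none; numbers over the bars are genes with the feature over genes in the family, and dashed lines are the shares of all protein-coding genes. EphA stands lowest for H3K27ac (1/9) and highest for no promoter peak (7/9).

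Median scores of the marked promoters were lower than those of protein-coding genes in general. The median of the highest V5 promoter score was 114.5 over the 8 genes, beside 196 over the 3640 protein-coding genes with such a peak. For RNAPOL2 the medians were 728 and 912, and for H3K27ac they were 399 and 863. The V5 scores of 6 of the 8 genes (75%) lay below the median of the list, beside 56% of the protein-coding genes with a V5 promoter peak. These medians leave out genes without a peak.

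Sema6a, a transmembrane semaphorin that binds plexin-A receptors (ENSMUSG00000019647.16, chromosome 18, 47235598 to 47368870, minus strand), had the highest V5 promoter peak of the family. Its V5 peak lies over a TSS and has a score of 2168, rank 390 of 10665. Its RNAPOL2 promoter peak, with a score of 3296 and rank 637, was the highest of the 53 genes. The H3K27ac peak at the same site had a score of 1798. The V5 peak is 3270 bp wide and held no TGACGTCA and 1 variant of the form TGANNTCA.

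Epha2, an Eph receptor found in many carcinomas and melanomas (ENSMUSG00000006445.3, chromosome 4, 141301240 to 141329384, plus strand), was the only receptor with V5 at its promoter and had 3 such peaks. The highest, with a score of 1177 and rank 978, lies upstream of the gene (chr4:141297081-141298360) and overlapped an H3K27ac peak with a score of 146 but no RNAPOL2 peak. Its nearer edge is 2.88 kb from the TSS. The second, with a score of 579, lies over an exon (chr4:141309031-141309770) near a later TSS and overlapped RNAPOL2 and H3K27ac peaks with scores of 339 and 346. The third, with a score of 265 and rank 4615, lies over the first TSS (chr4:141300951-141301690) and holds the TGACGTCA printed above. There the highest RNAPOL2 (2772, rank 967) and H3K27ac (1503) peaks of the gene were listed. Thus the V5 peak with the motif was the lowest-scored of the 3, at the site where the other marks were highest.

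The secreted semaphorins with V5 were Sema3b and Sema3c. Sema3b (ENSMUSG00000057969.15, chromosome 9, 107597674 to 107609229), whose human counterpart is often lost in lung cancer, had a V5 peak with a score of 153 and rank 6916 over one of its 14 TSSs (chr9:107605011-107605590). The RNAPOL2 peaks over its own starts had scores of 168, at that site, and 157. The highest RNAPOL2 peak in its promoter windows, with a score of 1022, lies outside the gene within 3 kb of the TSS of Gnai2. The H3K27ac peak over it, with a score of 2453 and rank 1448, is 11350 bp wide and comes within 3 kb of a TSS of Gnai2. Sema3c (ENSMUSG00000028780.13, chromosome 5, 17574281 to 17730268) had a V5 score of 76 and rank 9387 (chr5:17574331-17574840), with RNAPOL2 at 168 and H3K27ac at 226 at the same TSS. Neither V5 peak held a searched motif.

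Sema4c, a class 4 semaphorin that binds plexin-B2 (ENSMUSG00000026121.13, chromosome 1, 36548639 to 36558349), had a V5 score of 153, also at rank 6916, at a promoter with the highest H3K27ac score of the family. The V5 peak (chr1:36557971-36558540) lies over a TSS and holds TGACGTCA and TGAGTCA. The H3K27ac peak has a score of 4081 and rank 377, is 17670 bp wide and also covers starts of Ankrd39 and D430040D24Rik. The RNAPOL2 score was 2182. The noncoding gene D430040D24Rik runs on the other strand across the V5 peak, so the peak cannot be assigned to 1 of the genes.

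Sema4f, a class 4 semaphorin (ENSMUSG00000000627.15, chromosome 6, 82911885 to 82939769), had 2 V5 peaks in introns under 1 H3K27ac peak with a score of 616. The nearer (chr6:82936061-82936560) had a score of 76, at rank 9387, and was a promoter peak by a small margin, with its edge 2.985 kb from a TSS. The farther (chr6:82934651-82935490), with a score of 468 and rank 2786, counted as a body peak and held the AP1 motif and the string printed above. No RNAPOL2 peak overlapped either. The nearest miss on the other side of the 3 kb limit was Sema3f, whose nearest V5 peak lies 7.881 kb away with a score of 147.

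Sema5a, a semaphorin with thrombospondin repeats (ENSMUSG00000022231.10, chromosome 15, 32244810 to 32696341), had the lowest V5 promoter score, 43, at rank 10389. Its RNAPOL2 (1743) and H3K27ac (2435, rank 1473) scores were among the higher ones of the family. The V5 peak (chr15:32244251-32245010) is also within 3 kb of the starts of Snhg18 and Snord123. So are the RNAPOL2 and H3K27ac peaks with these scores, so none of these peaks can be tied to Sema5a alone.

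**Figure D3:**
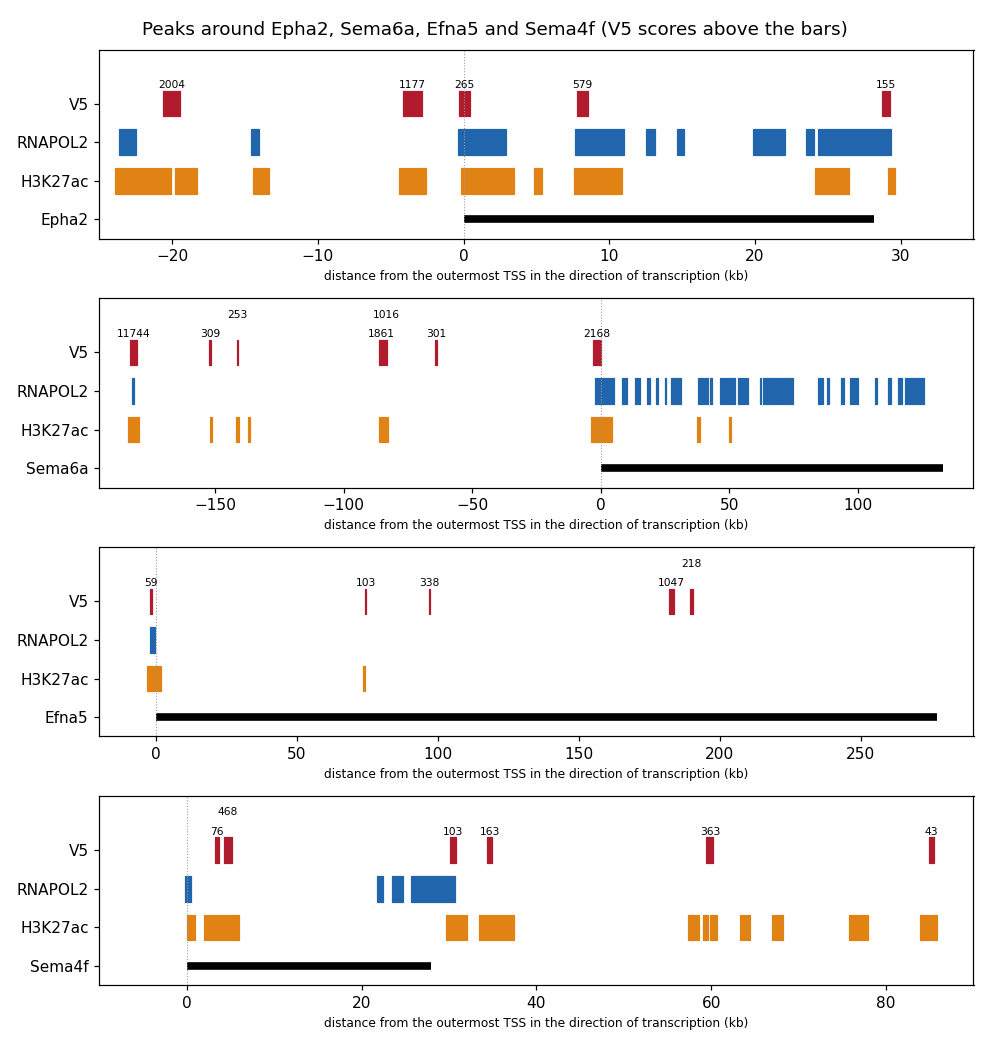
Peaks of the V5, RNAPOL2 and H3K27ac lists (coloured bars) around Epha2, Sema6a, Efna5 and Sema4f (black bars, gene length), by distance from the outermost TSS in kb along the direction of transcription; numbers over V5 bars are V5 scores. RNAPOL2 peaks run along most of Sema6a, whereas Efna5 has 1 RNAPOL2 peak and 5 V5 peaks.

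Within gene bodies, the guidance genes had fewer V5 peaks per length than protein-coding genes as a whole. A body peak overlapped the gene and touched none of its promoter windows. V5 body peaks were listed in 3 of the 53 genes (5.66%), beside 7.1% of all protein-coding genes. RNAPOL2 body peaks were listed in 8 (15.1%, beside 11.2%) and H3K27ac body peaks in 11 (20.8%, beside 13.8%). With the upper 50% of each list by score, these directions turned, with V5 at 5.66% beside 4.5%, RNAPOL2 at 1.89% beside 3.19% and H3K27ac at 1.89% beside 5.84%. The guidance genes are longer, with a median of 36.902 kb against 17.425 kb. Among the 22 of at least 100 kb, 2 had a V5 body peak (9.09%), beside 34.6% of the 2492 protein-coding genes of that length. For RNAPOL2 the shares at that length were 4.55% and 18.2%, and for H3K27ac they were 31.8% and 42.9%. The 14 genes of 20 to 100 kb lay above the background for RNAPOL2 (28.6%, beside 15.6%) and H3K27ac (28.6%, beside 19.6%) and close to it for V5 (7.14%, beside 7.73%). The 17 shorter genes had RNAPOL2 body peaks in 17.6%, beside 6.86%, and no V5 or H3K27ac body peak, beside 0.874% and 3.93%.

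Counted per 100 kb of gene, V5 body peaks numbered 0.0855 in the guidance genes and 0.310 in all protein-coding genes. H3K27ac body peaks numbered 0.200 and 0.732 per 100 kb. Several of the longest genes, including Epha6 at 952.049 kb, Sema3a at 477.152 kb and Ephb1 at 432.566 kb, had no peak of any list at the promoter or in the body.

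**Figure D4:**
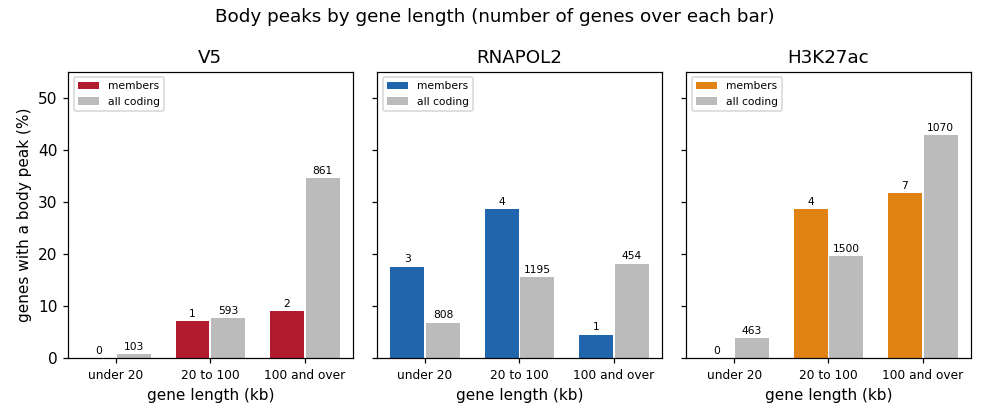
Share of genes (%, y axis) with a V5, RNAPOL2 or H3K27ac body peak (panels) in 3 classes of gene length in kb (x axis), for the 53 guidance genes (coloured) and all protein-coding genes (grey); numbers over the bars are genes with a body peak. At 100 kb and over, the coloured bars lie below the grey ones in all 3 panels.

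All 6 V5 body peaks lay in introns, none overlapped an RNAPOL2 peak, and 3 (50%) overlapped H3K27ac, beside 27.5% and 67.6% of the V5 peaks in the bodies of all protein-coding genes. They belonged to Efna5, Sema5b and Sema4f. Efna5, a ligand for EphA receptors (ENSMUSG00000048915.12, chromosome 17, 62604184 to 62881317, minus strand), had the most V5 peaks of the family, with 1 at the promoter and 4 in the body. The promoter peak (chr17:62882671-62883400) lay just outside the gene and had a score of 59 and rank 9952 beside RNAPOL2 at 270 and H3K27ac at 545.

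The body peaks of Efna5 had scores of 1047 (rank 1158, chr17:62697471-62699150), 338 (chr17:62783931-62784540), 218 (chr17:62690951-62691880) and 103 (chr17:62806651-62807210). The last of these overlapped H3K27ac, with a score of 101, and the other 3 overlapped neither mark. The highest-scored V5 peak in the gene thus stood 182.834 kb from the TSS in a stretch without an H3K27ac or RNAPOL2 peak. The peak with a score of 218 held the AP1 motif, and the other 3 body peaks held no searched motif.

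Sema5b, the other class 5 semaphorin (ENSMUSG00000052133.16, chromosome 16, 35541145 to 35664732), had no V5 or RNAPOL2 promoter peak and an H3K27ac promoter score of 82. Its V5 body peak (chr16:35630621-35632020) had a score of 844 and rank 1503, overlapped an H3K27ac peak with a score of 110, and held the TCA repeats printed above.

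RNAPOL2 body peaks were concentrated in Sema6a. Of the 33 in the family, 24 lay in Sema6a, and 18 protein-coding genes had more. They had low scores, from 32 to 201 with a median of 54, and spread from 9.285 to 121.975 kb downstream of the outermost TSS, with a summed width of 47.96 kb. One overlapped an H3K27ac peak and none a V5 peak. Without Sema6a, the RNAPOL2 body peaks of the family numbered 9, or 0.131 per 100 kb, against 0.471 with it and 0.529 over all protein-coding genes. Epha2 came next with 3 RNAPOL2 body peaks, and Epha1, Ephb4, Sema3b, Sema4b, Sema4f and Sema4g had 1 each.

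V5 peaks beyond promoters and bodies were assigned to the protein-coding gene with the nearest TSS. Within 50 kb of a TSS, a V5 peak was listed for 21 of the 53 genes (39.6%), beside 41.3% of all protein-coding genes. As the nearest protein-coding gene, 15 members (28.3%) received at least 1 V5 peak, beside 23.2%. They received 53 V5 peaks in all, of which 37 lay outside the promoters and bodies of 11 genes, at a median of 141.325 kb from the TSS. None of these 37 held TGACGTCA, 21 overlapped H3K27ac (56.8%) and 5 overlapped RNAPOL2 (13.5%), beside 8.51%, 73.4% and 42% of all V5 peaks, promoter peaks included.

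The highest-scored of them lay near Sema6a. It is an intergenic peak 181.745 kb from the TSS, with a score of 11744 and rank 8 of all V5 peaks, that overlapped both RNAPOL2 and H3K27ac and held 3 copies of TGAGTCA and 1 string. In all, 8 such peaks were nearest to Sema6a, including peaks with scores of 1861 at 85.125 kb and 1016 at 83.455 kb. The next highest was the peak upstream of Epha2 whose TGA repeats are printed above. It had a score of 2004 and rank 443 and overlapped H3K27ac but not RNAPOL2.

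Receptors without V5 at the promoter also had distal V5 peaks nearest to them. Nrp2 had 9, of which 7 lay inside the neighbouring gene Pard3b and the highest had a score of 1859 at 63.85 kb. Nrp1 had 3, the highest with a score of 680 at 193.374 kb. Plxnc1, the receptor of Sema7a, had 4, all overlapping H3K27ac, the highest with a score of 1275 at 130.985 kb. Which gene, if any, such a peak acts on was not measured.

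Across the 16 V5 peaks at promoters and in bodies, searched motifs were counted beside the whole list, and with so few peaks each count moves the share a lot. TGACGTCA was found in 2 (12.5%), beside 8.51% of all V5 peaks. TGAGTCA was found in 3 (18.8%, beside 26%), other TGANNTCA sequences in 5 (31.2%, beside 40.3%) and strings in 2 (12.5%, beside 10.2%). No searched motif was found in 8 (50%), beside 39%. Motifs were sought on both strands over the whole peak, and TGACGTCA was not counted among the TGANNTCA sequences. In RefSeq promoters (GRCm38.p6, 300 bases around a start), TGACGTCA was present in 1.79% of 32851, and of 61 promoters matched to 47 of the genes it was present in 1, that of Epha2.

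Some promoter peaks cannot be tied to 1 gene. The only V5 promoter peaks of Sema4c and Sema5a lie within 3 kb of a TSS of another gene, as do the only RNAPOL2 promoter peaks of 9 genes and the only H3K27ac promoter peaks of 7. With such shared peaks left out for all genes, an alternative chosen after the data were seen, the counts were 6 for V5 (11.3%, beside 9.11% of all protein-coding genes), 24 for RNAPOL2 (45.3%, beside 31.4%) and 31 for H3K27ac (58.5%, beside 35%). The V5 share then lay above that of all genes rather than below it.

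Other pathways of axon guidance were counted in the same way. Of 26 genes for slits, netrins, their receptors and related adhesion proteins, 5 had a V5 promoter peak (19.2%, beside 16.6% of all protein-coding genes), 11 RNAPOL2 (42.3%, beside 53.5%), 16 H3K27ac (61.5%, beside 58.6%), and 8 none of the 3 (30.8%, beside 39.9%). Those with V5 were Slit3 (score 122), its receptor Robo1 (289), Ntn3 (376), Ntng2 (659) and the adhesion molecule Nrcam (313). Slit3 also had 14 V5 body peaks and Robo1 had 5. A further list held 34 signalling partners of plexins and Eph receptors, most of them inside the cell, such as small GTPases and kinases. RNAPOL2 was listed at 31 of their promoters (91.2%, beside 53.5%), H3K27ac at 32 (94.1%, beside 58.6%) and V5 at 9 (26.5%, beside 16.6%). All 9 with V5 were among the 31 with RNAPOL2. Of all protein-coding genes with an RNAPOL2 promoter peak, 29.7% had V5. The highest V5 score of that list was 496, at Rac1, a GTPase that drives membrane ruffling.

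Whole tumour holds other cell types, whose marker genes were counted in the same lists. H3K27ac promoter peaks were listed at 3 of 6 endothelial markers (Pecam1, Cdh5 and Kdr, the highest score 346), at 4 of 5 macrophage and leukocyte markers (highest 1554) and at 4 of 5 fibroblast and pericyte markers (highest 1242), beside 58.6% of all protein-coding genes. RNAPOL2 promoter peaks were listed at 1, 1 and 2 of these markers in the same order (16.7%, 20% and 40%, beside 53.5%), and V5 at none. No H3K27ac promoter peak was listed at 6 skeletal muscle markers, nor at Tek, Tie1, Vwf, Itgam or Rgs5. The part of other cell types in the counts of the guidance genes was not tested.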

How the data were processed

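ChIP-seq of mouse CCS tumours was deposited as 3 peak lists, for V5, RNAPOL2 and H3K27ac. The authors aligned reads with BWA-MEM (0.7.10-r789) to mm10, removed duplicates, called peaks with MACS2 (2.2.6) against input, with the broad option for H3K27ac, and removed ENCODE denylisted regions. The score deposited by the authors for each peak is a whole number whose scale is not stated. Samples are labelled 4 to an antibody, but more V5 and RNAPOL2 samples appear in the methods. Replicates were averaged for signal tracks, which were not used here. Which samples went into each peak list, and how they were pooled for it, is not given in the sources used here.

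Gene intervals and TSSs came from GENCODE vM21, and sequence from GRCm38. Promoter peaks came, by at least 1 bp, within 3 kb of a TSS of the gene. Body peaks overlapped the gene but none of its promoter windows. All values were computed with Python 3.11.15 and the lists hold no read counts, so precision cannot be stated. The overlap and motif functions were tested on simulated data and gave the right answer in 100% of 2000 intervals and 500 implanted motifs. Full values are given for every gene with a V5 promoter peak, those with V5 body peaks (up to 10), the 3 highest RNAPOL2 and H3K27ac promoter scores and the gene with the most V5 peaks. The genes, lists and rules were chosen with earlier results of these data known. One list of marker genes is not reported here.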

Additional observations from a re-analysis of the deposited data

How the results depend on the processing

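Counts were repeated with other windows, start sites, overlap rules, score limits and distances, and 85 of 102 stayed within 1.5 times. With the upper 50% of each list by score, V5 promoter peaks were listed at 2 genes (3.77%, beside 7.3% of protein-coding genes) and all 3 marks at 2 (3.77%, beside 6.39%). V5 was then listed at 2 of the 27 genes with RNAPOL2, beside 13.9% of the protein-coding genes with an RNAPOL2 promoter peak. RNAPOL2 body peaks were listed in 1 gene (1.89%, beside 3.19%), H3K27ac body peaks in 1 (1.89%, beside 5.84%), and TGACGTCA in 1 V5 peak, since fewer peaks remain. Without the V5 peaks scored below 103, V5 promoter peaks and all 3 marks each came to 4 genes (7.55%, beside 12.2% and 11.5% of protein-coding genes). V5 among genes with RNAPOL2 also came to 4, beside 21.6% of the protein-coding genes with an RNAPOL2 promoter peak. The V5 promoter count therefore rests in part on low-scored peaks. With the outermost TSS only, V5 body peaks were listed in 5 genes (9.43%, beside 8.77%, above the background where it lay below), RNAPOL2 body peaks in 15 (beside 18.1%) and H3K27ac body peaks in 18 (beside 19.5%), because peaks at inner start sites then count as body peaks. Where body peaks could touch the promoter window, these counts were 9, 34 and 38 (beside 20%, 53.7% and 59.1%), with 14 V5 body peaks, by the wider definition. Within 20 kb of a TSS, a V5 peak was listed for 10 genes (18.9%, beside 27.4%), and within 100 kb for 30 (56.6%, beside 56%). No paired analysis was possible because each antibody has 1 list without values per sample, so leaving out a replicate was not possible either. The unstated score scale, and depths that are not given sample by sample, limit what a missing peak shows.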
